A study of Hordeum vulgare with 12 samples.

Results

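VRS5 DAP-seq peaks in gene deserts are the binding regions of the barley transcription factor VRS5 whose summit lies more than 500 kb from the nearest protein-coding gene. Of the 99518 VRS5 peaks placed on chromosomes 1H to 7H, 3884 met this rule, a share of 3.90% (95% Wilson interval 3.78 to 4.02), and a further 49 peaks, on unplaced sequence, were left out. The rule used only the position of the summit and the gene starts and ends that RefSeq annotates on MorexV3, the same build as in the peak list, and none of the measured values. The peaks come from 12 libraries, 6 with VRS5-FLAG (labelled TB1-FLAG) and 6 with GFP-FLAG as bait. The VRS5 coding sequence was from cv. Bowman. Every library was made from naked genomic DNA of wild-type cv. Morex, extracted from 100 mg of developing inflorescence at 4 weeks after sowing, near Waddington stage 4, and both proteins were made in a wheat germ extract. Peaks were called by the authors on the pooled libraries of either bait, so each peak has 1 set of values, no replicate error exists, and all intervals cover counting error alone.

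VRS5 is the barley ortholog of TEOSINTE BRANCHED 1, a TCP transcription factor that represses the outgrowth of axillary buds and, in barley, of lateral spikelets. Most of the large barley genome is intergenic and consists largely of transposable elements. Genes are crowded towards the chromosome ends, and the interior of the chromosomes holds long stretches with few or none. Because DAP-seq uses purified DNA, a peak in such a stretch says that the protein retained the fragment in vitro and not that the site is open or used in the plant.

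Gene deserts were found wherever 2 neighbouring protein-coding genes lay more than 1 Mb apart. There were 365 such gaps, with a median length of 1.28 Mb and a longest of 5.49 Mb. The inner part of these gaps, more than 500 kb from either gene, amounted to 167 Mb or 3.98% of the 4196 Mb of the 7 chromosomes, and had a median length of 278 kb per gap. VRS5 peaks were present in 323 of the 365. The 42 deserts without a peak were mostly short, with a median inner length of 31.9 kb. The median desert held 7 peaks and the fullest 97, and the 61 deserts with at least 20 peaks contained 51.1% of all desert peaks.

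Most deserts had no other annotated gene in their inner part, whose median length was 278 kb. The density of such genes outside the deserts was not computed. In 250 of the 365, the inner part held no annotated gene of any class, and 1365 of the desert peaks lay more than 500 kb from every annotated gene. Pseudogenes (298) and long non-coding RNA genes (72) were scattered over the remainder, and 4803 rRNA genes were concentrated in a few deserts. An annotated gene of any kind lay within 15 kb of 99 desert peaks (2.55%), and 16 had the summit inside one. By the rule none of these genes was protein-coding, and the same share over all peaks was not computed. Within 15 kb of a pseudogene lay 1.73% of desert peaks and 2.82% of all other peaks. For long non-coding RNA genes these shares were 0.747% and 1.71%.

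Deserts occurred on every chromosome but were concentrated in the interior. The middle of 3 equal parts of each chromosome held 79.0% of the desert peaks and 78.9% of the desert sequence, against 33.2% of all other VRS5 peaks. Chromosome 4H stood out with 76 deserts, 45.4 Mb of desert sequence and 1075 peaks, which is 27.7% of all desert peaks. Chromosome 1H had the fewest, with 296 peaks in 12.6 Mb.

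The density of VRS5 peaks in gene deserts was close to that of the remaining sequence. It was 23.3 summits per Mb (95% Poisson interval 22.5 to 24.01) in deserts and 23.7 per Mb (23.6 to 23.9) elsewhere, a ratio of 0.980 with an exact conditional binomial interval of 0.949 to 1.01. By chromosome this ratio lay between 0.894 on 3H (0.807 to 0.987) and 1.08 on 6H (0.992 to 1.17), below 1 on 5 chromosomes and above it on 2. Set against sequence 100 to 500 kb from a gene, and so also away from genes, the deserts held fewer peaks. The ratio was 0.883 (0.854 to 0.913) to all such sequence. It was 0.931 (0.895 to 0.968) to that in the same 365 gaps, where 7294 peaks gave 24.98 per Mb. By chromosome, the ratio within the same gaps went from 0.816 on 3H (0.725 to 0.918) to 1.01 on 1H (0.884 to 1.16). It was close to 1 on 1H, 2H and 6H, and its interval lay wholly below 1 only on 3H, 4H and 5H. Peaks were treated as independent in these intervals, but the counts per desert varied 1.82 times as much as counting alone allows, and 2.79 times in the 116 deserts with at least 0.5 Mb of inner sequence, so that the intervals are too narrow.

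The density differed among classes of distance beyond 500 kb. From 500 to 600 kb from a protein-coding gene there were 24.9 peaks per Mb (23.6 to 26.2), from 600 to 750 kb 24.1, from 750 kb to 1 Mb 22.5, from 1 to 1.5 Mb 19.96 (18.1 to 22.0) and beyond 1.5 Mb 18.3 (15.5 to 21.5). These classes were drawn from 365, 226, 116, 37 and 8 deserts, so that the farther ones represent only the longest deserts. In the same 37 deserts that extend beyond 1 Mb, the density was 22.1 per Mb at 500 kb to 1 Mb (20.6 to 23.6) and 19.5 beyond (17.9 to 21.2), with overlapping intervals. The class beyond 1.5 Mb comprised 151 peaks. Its density was 30.7 per Mb in the longest desert of 6H and 24.1 in the longest of 4H, but 4.75 to 14.3 in the other 6. The lowest values, 4.75 on 5H and 5.25 on 4H, rest on 1 peak each, in 0.211 and 0.190 Mb. Leaving out 1 desert at a time moved the density of this class between 15.8 per Mb (12.7 to 19.4), without the longest of 4H, and 20.005 per Mb (16.7 to 23.7), without the longest of 3H.

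**Figure D1:**
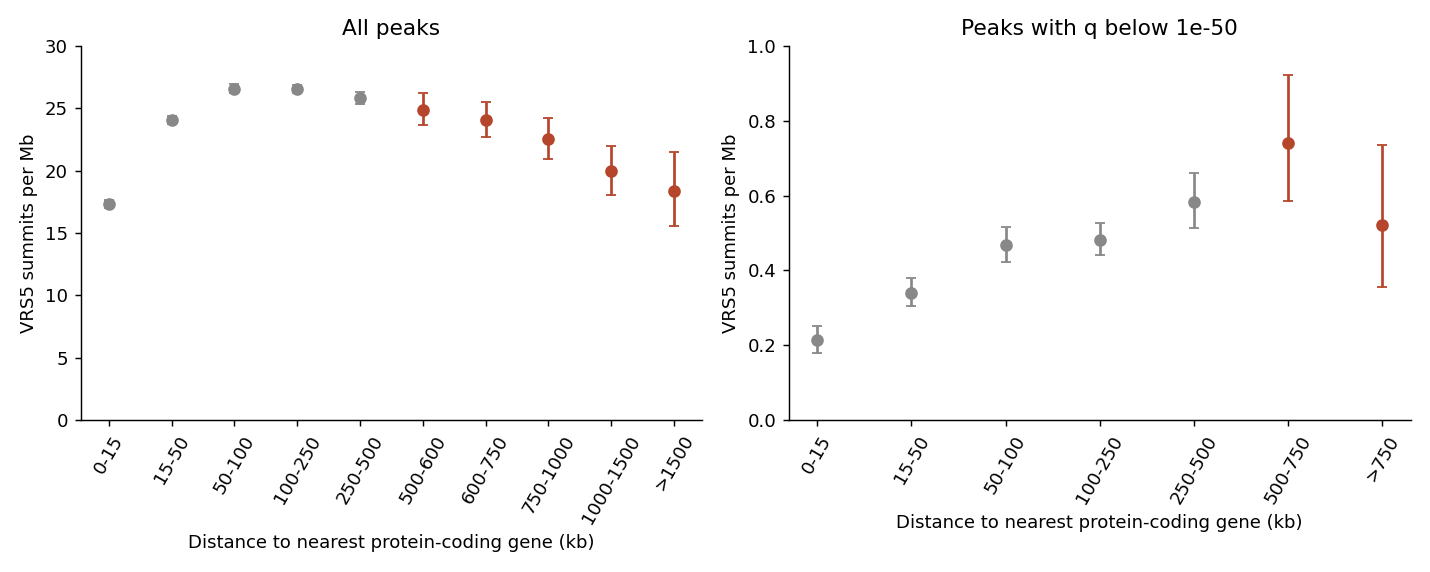
Density of VRS5 summits per Mb of sequence, by distance to the nearest protein-coding gene in kb (gene bodies left out), for all peaks (left) and for peaks with q below 1e-50 (right). Points are densities, bars 95% Poisson intervals, and desert classes beyond 500 kb are in red. The density of all peaks goes from 24.9 per Mb at 500 to 600 kb to 18.3 per Mb beyond 1.5 Mb, a class with sequence from 8 deserts. That of peaks with q below 1e-50 is 0.740 per Mb at 500 to 750 kb and 0.213 per Mb up to 15 kb from genes.

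VRS5 peaks with q below 1e-50, called strong peaks for their q, were more frequent in gene deserts than in the rest of the genome. With q below 1e-50 there were 110 desert peaks, 2.83% of them (95% Wilson interval 2.36 to 3.40), beside a share of 1.73% among all peaks. They lay in 82 deserts, with at most 5 in any of them. Their density was 0.659 per Mb (0.541 to 0.794) against 0.400 per Mb (0.381 to 0.420) elsewhere, a ratio of 1.65 (1.34 to 1.997). The ratio was above 1 on each of the 7 chromosomes, from 1.15 on 4H (0.721 to 1.74) to 2.40 on 5H (1.42 to 3.85), and the interval lay wholly above 1 on 1H, 5H and 6H. Without 4H it was 1.81 (1.44 to 2.25). By fold enrichment the strong peaks of deserts were not higher, with a median of 8.66 against 8.95 for strong peaks elsewhere. Their median pileup was 107 against 102, and their median background 11.3 against 10.5.

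The density of these strong peaks increased with distance from genes well before the deserts began. It was 0.213 per Mb up to 15 kb from a gene (0.179 to 0.252), 0.340 at 15 to 50 kb, 0.468 at 50 to 100 kb, 0.482 at 100 to 250 kb and 0.583 at 250 to 500 kb (0.513 to 0.660). In deserts it was 0.740 at 500 to 750 kb (0.585 to 0.923) and 0.520 beyond (0.356 to 0.734), and these intervals overlap each other and that of the 250 to 500 kb class. In the outer parts of the same gaps, 179 strong peaks gave 0.613 per Mb, so that the deserts had 1.07 times that density, with an interval of 0.840 to 1.37 that includes 1. At q below 1e-20 the share was 35.9% of desert peaks (34.4 to 37.4), beside 31.9% of all peaks. In the outer parts of the same gaps it was 34.7% (33.7 to 35.8), an interval that overlaps that of the deserts.

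The fold enrichment over GFP-FLAG, the pileup plus 1 divided by the local GFP-FLAG background plus 1, was nearly the same in deserts as elsewhere. Its median was 4.37 in deserts (95% interval of the median 4.33 to 4.42), with quartiles of 3.80 and 5.29 and a range of 2.64 to 14.4, and 4.38 (4.38 to 4.39) for all other peaks. A fold enrichment above 10 was reached by 22 desert peaks, or 0.566% (0.374 to 0.856), beside 0.452% of all peaks. Both terms of the ratio were higher in deserts. They are not separate results, because on a higher background a peak needs a higher pileup to pass q below 1e-10. The pileup, the number of VRS5-FLAG reads or fragments at the summit, had a median of 57 (56 to 57) against 54, and 131 desert peaks (3.37%, 2.85 to 3.99) had a pileup of 100 or more, beside 1.88% of all peaks. In the outer parts of the same gaps, 100 to 500 kb from a gene, that share was 2.78% (2.43 to 3.19), and the intervals overlap. The GFP-FLAG background at the summit had a median of 11.95 in deserts (11.6 to 11.95) against 10.9. Within 0.001 of the lowest background of any peak were 69 desert peaks, or 1.78% (1.41 to 2.24), beside 2.16% of all peaks. The background was higher in deserts on each of the 7 chromosomes, by 0.174 on 1H up to 1.27 on 5H.

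Because higher background lowers the fold enrichment that a given pileup yields, desert and other peaks were also set side by side in 5 classes of similar background. The class with the highest background held 27.1% of the desert peaks and the lowest 15.4%. In each class the median fold enrichment of desert peaks was the higher, by 0.030 to 0.167. In the lowest class, for example, it was 5.25 in deserts and 5.08 elsewhere. The median pileup was 47 in deserts and 45 elsewhere in the lowest class, 51 in both in the middle class, and 67 and 65 in the highest. Whether the background has a part in the excess of peaks with very low q was not tested.

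Desert peaks were broader as well. Their median width was 290 bp (287 to 294), with quartiles of 234 and 382 bp, against 272 bp (272 to 273) for all other peaks, and the difference was 8 to 25 bp within the chromosomes. A width over 500 bp was found for 486 desert peaks, 12.5% (11.5 to 13.6), beside 8.20% of all peaks, and a width over 1000 bp for 41, 1.06% (0.779 to 1.43), beside 0.544%. The broadest ran over 1884 bp on 2H, from 338304728 to 338306611, with a pileup of 109 and a fold enrichment of 6.63. The desert peaks over 500 bp had a median background of 13.5 and a median fold enrichment of 4.54, where the narrower ones had 11.5 and 4.35. In all 5 classes of background the desert peaks had the larger median width, by 8 to 24 bp. The outer parts of the same gaps were nearly as high in width (median 288 bp, 285 to 291) and in pileup (56, 55 to 56), and had a median background of 11.6 (11.4 to 11.9). Of the peaks there, 11.1% (10.4 to 11.8) were over 500 bp wide and 0.919% (0.724 to 1.16) over 1000 bp, with intervals that overlap those of the deserts. Between the inner and the outer parts of these gaps the median width thus differed by 2 bp, beside 18 bp between desert peaks and all others.

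**Figure D2:**
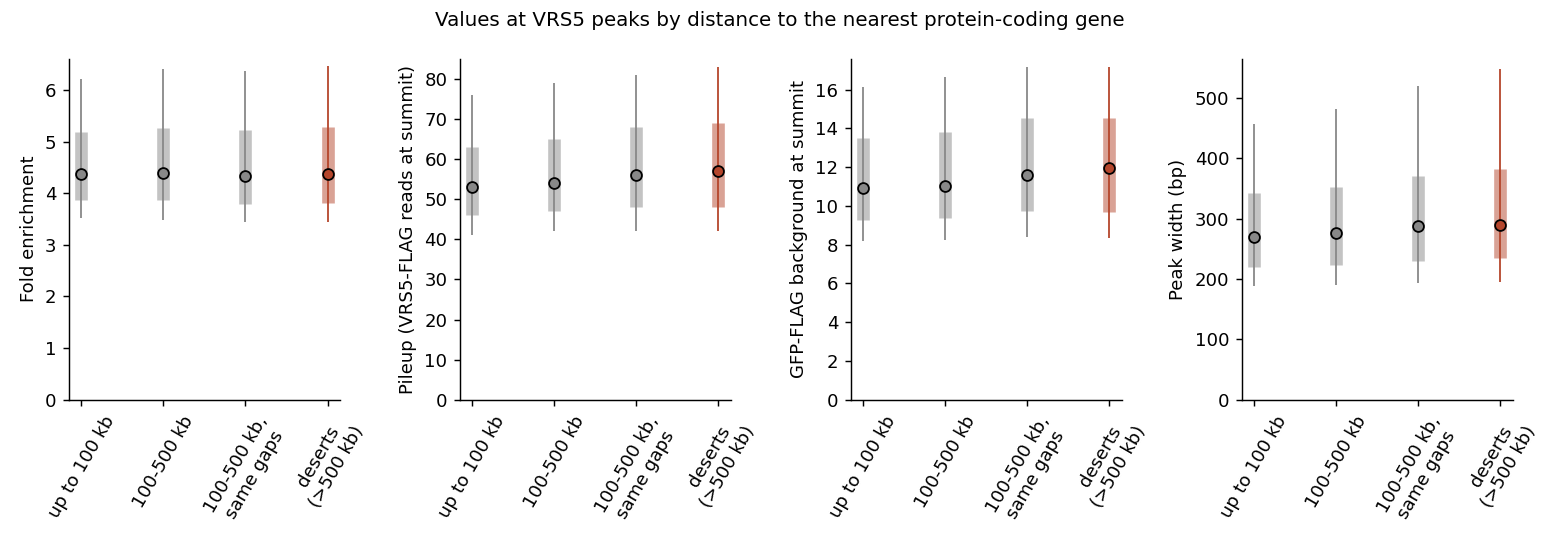
Fold enrichment, pileup, GFP-FLAG background and width (bp) of VRS5 peaks up to 100 kb from a protein-coding gene, 100 to 500 kb from one, 100 to 500 kb from one within the 365 gaps that hold deserts, and in deserts (red). Circles are medians, thick bars quartiles and thin lines the 10th to 90th percentiles over peaks. The fold enrichment is alike in all 4 groups, with medians of 4.34 to 4.398, and the median width goes from 270 bp near genes to 290 bp in deserts.

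The 10 desert peaks with the highest fold enrichment lay in 10 different deserts and each was the strongest of its desert. RefSeq gives the genes beside them by locus identifier only. The first was on 5H from 204397522 to 204398106, with a pileup of 126 over a background of 7.80 and a fold enrichment of 14.4, the 5th highest of all peaks on the chromosomes. Its nearest gene, LOC123398898, was 1318 kb away and LOC123398315 on the other side 2193 kb away. No annotated gene of any class was nearer, and the nearest VRS5 peak was at 46.9 kb. On 6H, the peak from 251052589 to 251053105 had the lowest q of all desert peaks, with a -log10 q of 112, a pileup of 154 and a fold enrichment of 13.0, and lay 757 kb from LOC123401893. A further peak on 6H, from 297223673 to 297224045, was enriched 12.3-fold at 506 kb from LOC123404631, just inside the limit. The strongest of 4H ran from 219285721 to 219286079, with a fold enrichment of 12.2 at 703 kb from LOC123446332.

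The other peaks of this group were enriched 11.2-fold to 11.98-fold. They lay 624 kb from LOC123426043 on 2H, 620 kb from LOC123443573 on 3H, 645 kb from LOC123448648 on 4H, 585 kb from LOC123413622 and 736 kb from LOC123413461 on 7H, and 966 kb from LOC123397639 on 5H. Those near LOC123413622 and LOC123397639 had a background of 6.91, within 0.001 of the lowest of any peak, with pileups of 89 and 88. That near LOC123413461, in contrast, had a pileup of 137 over a background of 11.4, and another VRS5 peak 0.732 kb away.

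At the limit of the rule, the values were unremarkable. The 3 peaks just inside lay 500087, 500153 and 500163 bp from a gene and were enriched 3.53-fold, 5.86-fold and 3.05-fold. The 3 just outside lay 499999, 499980 and 499968 bp away and were enriched 3.44-fold, 5.15-fold and 4.52-fold. The 3 peaks farthest from any protein-coding gene were all in the longest desert, on 4H. The farthest had its summit at 315483317, 2714 kb from LOC123448551 and 2775 kb from LOC123448554, with a pileup of 50 and a fold enrichment of 4.28. The other 2 of these had summits 0.789 kb apart, 2711 and 2710 kb from LOC123448554, with fold enrichments of 3.52 and 3.86.

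The 5 deserts with the most VRS5 peaks together held 361, or 9.29% of all desert peaks. The longest, between LOC123448551 and LOC123448554 on 4H (312769760 to 318258778), had 97 peaks in 4.49 Mb, or 21.6 per Mb (17.5 to 26.4), with fold enrichments of 2.89 to 10.1. They were spread throughout, with a median step of 38.1 kb between neighbours and a longest of 230 kb. Next was the desert between LOC123405123 and LOC123405550 on 6H (75838291 to 80010573), with 93 peaks in 3.17 Mb, or 29.3 per Mb (23.7 to 35.9). It lies at 0.139 of the length of its chromosome. It had the lowest median background of the 5, 9.87, the highest median fold enrichment, 4.91, and the narrowest peaks, with a median of 274 bp. Greenscreen regions, in which reads of the GFP-FLAG libraries piled up by themselves, covered 1.16% of it.

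The other 3 were on 4H. The desert between LOC123448571 and LOC123448572 was the most dense of the 5, with 62 peaks in 1.72 Mb, or 36.0 per Mb (27.6 to 46.2). That between LOC123448381 and LOC123446316 had 58 peaks at 26.5 per Mb (20.1 to 34.2). The desert between LOC123448513 and LOC123448515 had 51 peaks at 16.5 per Mb (12.3 to 21.7), and its peaks had the highest median background, 14.6, and the lowest median fold enrichment, 4.21. No peak in it exceeded 6.94-fold, where the maxima of the other 4 were 8.56 to 10.6. The interval of this desert does not overlap those of the 6H desert and of the desert between LOC123448571 and LOC123448572.

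**Figure D3:**
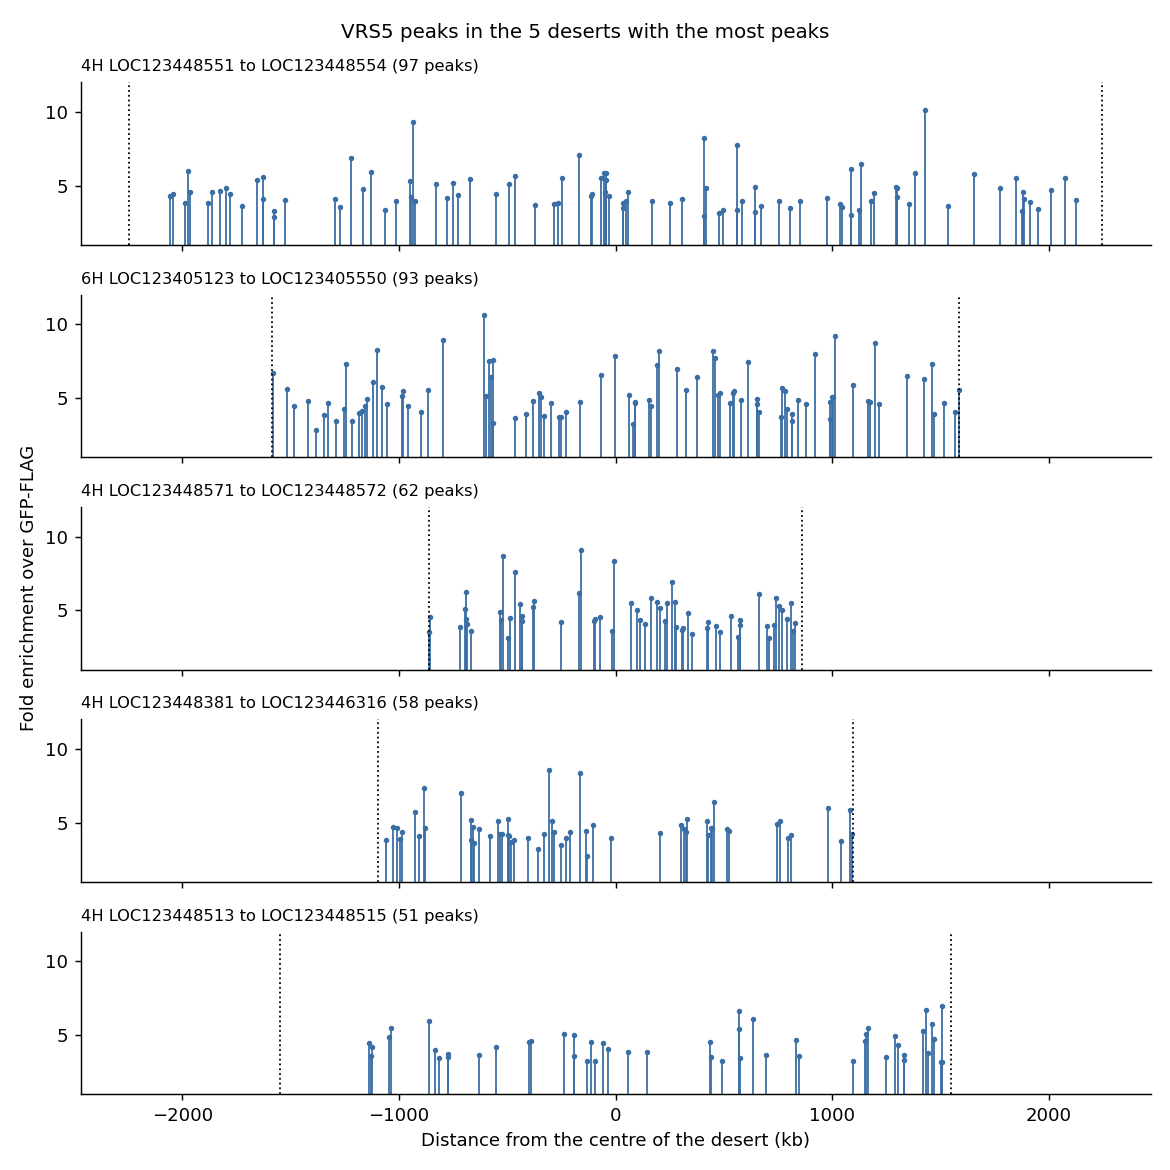
VRS5 peaks in the 5 deserts with the most peaks, by distance from the centre of the desert (kb) and fold enrichment over GFP-FLAG, with 1 line per peak. Dotted lines mark the limits of the sequence more than 500 kb from the flanking genes named in each panel. The deserts have 97, 93, 62, 58 and 51 peaks from top to bottom, spread along most of their length, and the left end of the lowest is without a peak.

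The number of peaks followed the length of the desert, with a Pearson correlation of 0.898 across the 365 deserts, which share the pooled libraries. Among the 116 deserts with at least 0.5 Mb of inner sequence, the density had a median of 24.4 per Mb, quartiles of 19.4 and 29.4 and a maximum of 42.8. The lowest was 0, in a desert on 2H between LOC123430605 and LOC123430606. Its 1465 kb of inner sequence held 4273 annotated rRNA genes with a median length of 119 bp, from 575978109 to 577443424, and no VRS5 peak and no greenscreen region. A single peak lay in the outer parts of the gap. On 7H, the desert between LOC123410076 and LOC123407530 had 286 rRNA genes of the same median length in 214 kb and was likewise without a peak and without a greenscreen region. The 5H desert between LOC123397639 and LOC123396305, with 193 rRNA genes of a median length of 1811 bp, had 29 peaks in 1.64 Mb and 16.6% of its sequence under greenscreen regions. These rRNA genes took up only a part of it, from 52599279 to 53242395. A stretch of 561 kb without a peak, between summits at 52490116 and 53051075, took in 132 of them. How reads were placed on these repeated genes was not tested.

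**Figure D4:**
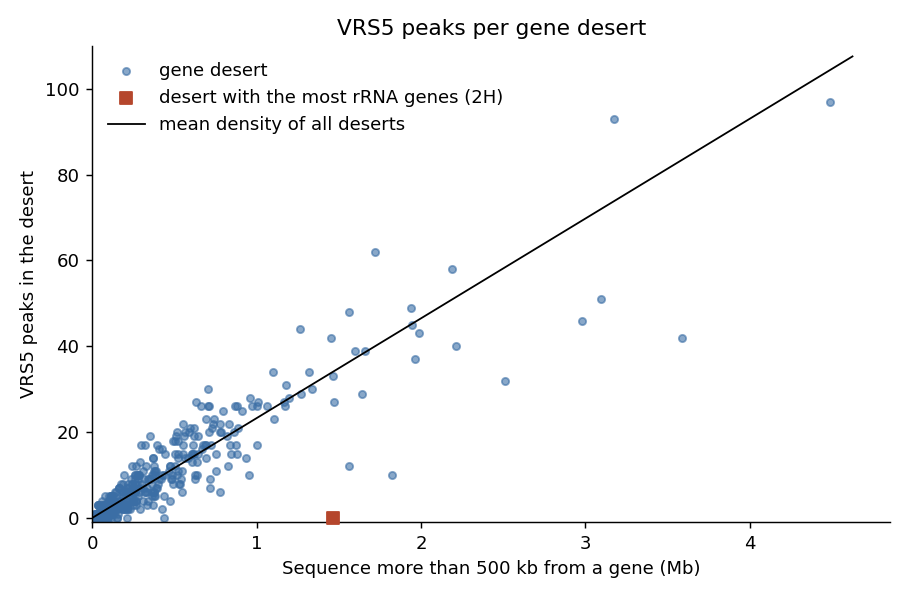
Number of VRS5 peaks in each of the 365 gene deserts against the length of its sequence more than 500 kb from a protein-coding gene (Mb). Each point is a desert, the line gives the mean density of 23.3 per Mb, and the square is the 2H desert of 1.47 Mb with 4273 rRNA genes and 0 peaks. Most deserts lie near the line, and the longest desert of 3H has 42 peaks in 3.59 Mb.

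Long stretches without a peak also occurred where no rRNA gene was annotated. The longest within inner sequence, on 3H between summits at 263683840 and 265032953, ran for 1349 kb in the desert between LOC123443640 and LOC123441679, where greenscreen regions covered 4.62% of the stretch. Each peak carries a serial number from the authors' unfiltered call, so that the number of called peaks left out of the list between neighbours could be counted. Here it was 34, or 25.2 per Mb. Over all steps between neighbouring desert peaks, called peaks numbered 100.3 per Mb, with the retained ones included, so that this stretch was also poor in called peaks. Over all deserts, 10029 called peaks were left out over 3561 steps between neighbouring desert peaks. Retained peaks were therefore 26.2% of those called (25.5 to 26.9), against 25.6% (25.5 to 25.7) elsewhere. The files do not say which of the left out peaks failed the q threshold and which lay on greenscreen regions. Greenscreen regions covered 7.28% of the desert sequence and 6.45% of the remainder, and the median desert peak was 52.0 kb from the nearest of them, against 59.97 kb for other peaks.

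Neighbouring desert peaks had a median spacing of 22.6 kb, with quartiles of 8.92 and 50.9 kb, and other neighbours 24.9 kb. Desert steps were counted only within a desert, so that steps across its limits and deserts without a peak were left out. This favours short steps in deserts, where the density was 23.3 per Mb against 23.7 elsewhere. Steps under 1 kb made up 1.85% in deserts and 1.53% elsewhere, and 55 desert peaks (1.42%) had no other peak within 100 kb, against 1.33% of other peaks. Pairs of summits at recurrent distances, those whose 50 bp class held at least 1.5 times as many pairs as the classes around it, took in 13.8% of the desert peaks (12.8 to 14.9), beside 13.3% of all peaks.

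The distance of about 10 kb was the most frequent. Of the 2170 pairs of desert peaks 1 to 20 kb apart, 121 were 9900 to 10249 bp apart, or 5.58% (4.69 to 6.62), against 4.06% (3.90 to 4.23) of pairs between other peaks. These pairs occurred in 85 deserts, at most 8 in any of them, the 6H desert between LOC123405123 and LOC123405550. On 4H were 35 pairs (28.9%), beside 27.7% of all desert peaks, and on 6H 28 pairs (23.1%), beside 15.1%. The 121 pairs involved 241 desert peaks, which had a median fold enrichment of 5.32, where all desert peaks had 4.37. Outside deserts the peaks of such pairs had 5.22. The pair with the highest lower value was on 5H, with summits at 52055396 and 52065482, 10086 bp apart, and fold enrichments of 9.66 and 11.3. A second pair in the same desert, with summits 10186 bp apart, had 10.9 and 9.22, and a pair on 3H, 10065 bp apart, had 8.98 and 9.09. At the other recurrent distances the shares in deserts did not exceed those elsewhere beyond their intervals. At 6450 to 6649 bp the share was lower, with 28 pairs or 1.29% (0.894 to 1.86) against 1.98% (1.86 to 2.10). These intervals nearly touch. Both this distance and that of about 10 kb were among 7 recurrent distances examined, whose limits came from all pairs, those of desert peaks included. The 10 kb share was not computed for the outer parts of the same gaps. All intervals of pair shares treat pairs as independent, although a peak can belong to several pairs, so that they may be too narrow.

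**Figure D5:**
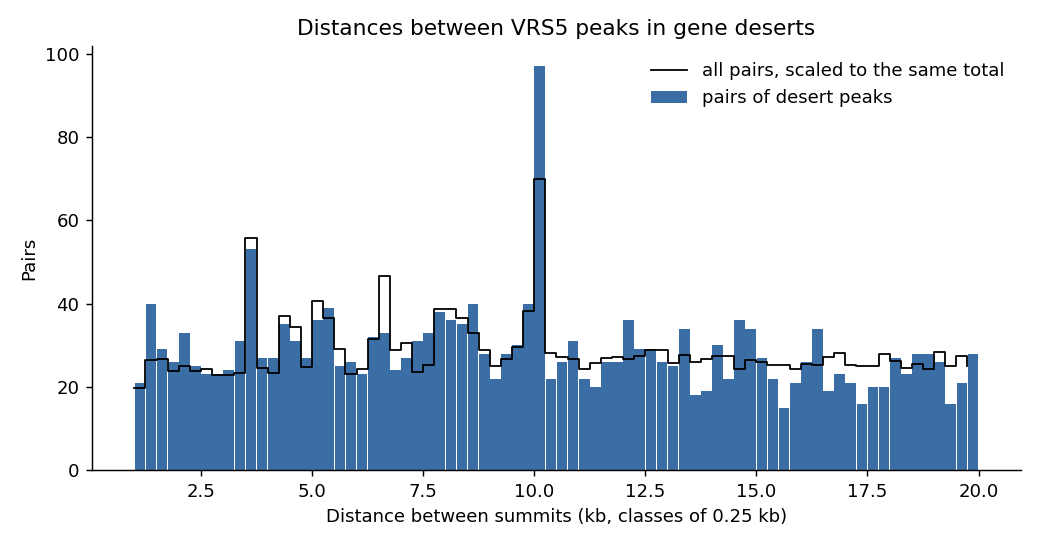
Distances between summits of VRS5 peaks in gene deserts, 1 to 20 kb apart, in classes of 0.25 kb. Bars count the 2170 pairs of desert peaks, and the line gives all 57140 pairs on the chromosomes scaled to the same total. The tallest bar is near 10 kb, where 121 pairs of desert peaks lie 9900 to 10249 bp apart.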

How the data were processed

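Tools listed in the submitters' processing notes are bedtools, MACS2 2.2.7.1, BWA 0.7.17 and Trimmomatic 0.39. The authors mapped the reads to MorexV3, pooled the libraries of each bait, called VRS5 peaks against GFP, removed those on greenscreen regions and kept q below 1e-10. The deposited pileup signal is the height at the summit, the deposited fold enrichment is its ratio to the GFP-FLAG background nearby, and q was deposited as a -log10 value. The authors' greenscreen score and its other columns were used only for the position of the regions. The depth per library was not used here, and no test between libraries could be made.

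The GFP-FLAG background at a summit was taken as the pileup plus 1, divided by the fold enrichment, minus 1. Distances ran from the summit to the nearest of 30627 protein-coding genes (gene start to end), with 0 inside a gene. Each chromosome was taken as long as its highest listed coordinate. Shares have 95% Wilson intervals, densities Poisson intervals, ratios of densities exact conditional binomial intervals, and medians intervals from binomial order statistics. Distances, desert lengths and recurrent distances were checked on simulated positions. Genes and peaks were named by a rule: those flanking the 5 deserts with the most peaks, the 10 highest fold enrichments, the 3 farthest peaks and the 3 on either side of the limit. The rRNA deserts, the longest stretch without a peak, the broadest peak and the pairs were picked after their values were seen. The members and lists were chosen with earlier results of these data known. The genome sequence was not used here, so that motifs and repeats were not analysed. Computation used scipy 1.17.1, pandas 2.3.3 and numpy 2.4.6 under Python 3.11.15, with figures from matplotlib 3.10.9.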

Additional observations from a re-analysis of the deposited data

How the results depend on the processing

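No paired analysis was possible because both lists were made from pooled libraries, with a single value per region. For the same reason leaving out single replicates was not run, and the motif alternatives were not run without the genome sequence. By construction, the number of desert peaks became 14952 (15.02%) beyond 250 kb, 559 (0.562%) beyond 1 Mb, 110 (6.38%) at q below 1e-50, 1395 (4.397%) at q below 1e-20 and 1365 (1.37%) with all annotated genes. The share was 3.32% without 4H. The density ratio was 1.07 beyond 250 kb, 0.821 beyond 1 Mb, 1.11 with q below 1e-20, 1.65 with q below 1e-50, 0.883 against sequence 100 to 500 kb from genes and 0.931 against such sequence in the same gaps; the cause was not tested. Leaving out greenscreen sequence, 4H or deserts with 100 or more rRNA genes kept it between 0.979 and 0.993. The median fold enrichment differed by 0.13 beyond 1 Mb, by -0.29 with q below 1e-50 and by 0.11 on average within the background classes. The background differed by 0.520 beyond 250 kb, 0.602 beyond 1 Mb and 0.353 against the same gaps. The median width differed by 18 bp, and by 14 bp beyond 250 kb, with q below 1e-20 or against 100 to 500 kb, 13.5 bp with q below 1e-50, 14.6 bp within background classes and 2 bp against the same gaps. The share in recurrent pairs was 0.572 percentage points above that of other peaks, and 1.82 above that of the same gaps. Greenscreen regions covered 6.70% with all annotated genes. Comparisons within the same gaps or the same 37 deserts, without single deserts, without 4H and without rRNA deserts, and the alternatives on width, were chosen after seeing the data.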
